A study of Mus musculus with 6 samples.

Results

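The genes of the collagen chains were followed in 6 RNA-seq libraries of mouse lung. They were taken as every gene of the deposited table whose symbol is Col, a number, the letter a and a number, which gave 44 of 56980 genes. Of these, 28 averaged 1 TPM or more across the libraries and were tested, and 16 averaged less and were only counted. TPM is a share of all transcripts of a library, corrected for gene length. The mice were NSG, an immunodeficient strain without mature T, B or natural killer cells, and all of them had carried a human tumour in the fourth mammary fat pad for 5 weeks. In the Ctrl group (n = 3) the graft was MDA-MB-231, a triple-negative breast cancer line. In the DPP3_KO group (n = 3) it was MDA-MB-231/DPP3 KO, the same line with the gene of dipeptidyl peptidase 3 knocked out. The knockout therefore lay in the grafted cells, and the collagen genes were the mouse genes of the deposited table. Whether reads of grafted human cells add to their values cannot be told from the sources used here. No group was free of tumour, and whether the knockout line was a single clone is not given in the sources used here. The title of the third Ctrl sample reads 232 in place of 231 and was taken as the same line. The series asks about tumour exosomes, lung metastasis and RAP1, and the comparison sets the lung beside a tumour without DPP3 against the lung beside a tumour with it. The labels number the replicates but do not say that each was a separate mouse, so p-values measure only the spread between these samples.

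Collagen chains are hydroxylated and wound into triple helices in the endoplasmic reticulum, secreted, trimmed and cross-linked. In the lung the fibrillar collagens, made mainly by fibroblasts, give airways, vessels and alveolar walls their tensile strength. Type IV collagen is instead a sheet, the scaffold of the basement membrane under the alveolar epithelium and around the capillaries: its common form is built of α1 and α2 chains, and a second form of α3, α4 and α5 chains is known from the alveolus and the kidney glomerulus.

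Several collagen genes lie next to each other, and the type IV genes are arranged as head-to-head pairs read from a common start region. RefSeq's gene order held 8 neighbouring pairs of collagen genes, among them Col4a1 with Col4a2, Col4a4 with Col4a3, Col4a6 with Col4a5, Col3a1 with Col5a2 and Col6a2 with Col6a1. The start regions of Col4a1 (chr8:11312777-11313076, minus strand) and Col4a2 (chr8:11312555-11312854, plus strand) are shown because this pair gave the highest collagen levels in Ctrl and both genes were lower in DPP3_KO. The sequences are RefSeq's on GRCm38.p6 and run from 250 bases before the annotated start to 50 bases after it. Capitals mark the 78 bases that both windows hold, read on opposite strands. As annotated, the transcripts overlap by 22 bases at their starts.
Col4a1: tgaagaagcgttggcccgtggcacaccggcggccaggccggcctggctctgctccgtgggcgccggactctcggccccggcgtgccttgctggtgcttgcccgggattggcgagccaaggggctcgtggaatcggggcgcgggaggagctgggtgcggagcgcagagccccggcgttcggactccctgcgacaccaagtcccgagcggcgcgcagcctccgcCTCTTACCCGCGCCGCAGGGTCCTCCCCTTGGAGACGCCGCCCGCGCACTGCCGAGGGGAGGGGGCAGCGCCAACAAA
Col4a2: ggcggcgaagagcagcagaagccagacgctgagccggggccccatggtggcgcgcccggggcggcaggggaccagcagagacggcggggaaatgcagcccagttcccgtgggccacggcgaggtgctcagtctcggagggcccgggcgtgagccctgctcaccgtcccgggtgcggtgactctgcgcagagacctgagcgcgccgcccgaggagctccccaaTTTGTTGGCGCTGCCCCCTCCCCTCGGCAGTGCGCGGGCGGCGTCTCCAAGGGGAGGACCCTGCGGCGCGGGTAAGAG

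Windows of the fibrillar genes Col1a2 (chr6:4505368-4505667, plus strand) and Col3a1 (chr1:45311288-45311587, plus strand) are shown beside them because these genes, unlike the type IV pair, overlapped between the groups. Here capitals mark the CCAAT box (CCAAT), the GC box (spelled GGGCGG) and the TATA box (spelled TATAAA) on either strand, and no match overlaps another in these windows.
Col1a2: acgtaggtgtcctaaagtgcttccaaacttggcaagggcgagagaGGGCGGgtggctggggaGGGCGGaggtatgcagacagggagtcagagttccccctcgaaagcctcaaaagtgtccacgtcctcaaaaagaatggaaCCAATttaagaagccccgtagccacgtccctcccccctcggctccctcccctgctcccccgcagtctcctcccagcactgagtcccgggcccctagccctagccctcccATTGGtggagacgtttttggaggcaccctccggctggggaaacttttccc
Col3a1: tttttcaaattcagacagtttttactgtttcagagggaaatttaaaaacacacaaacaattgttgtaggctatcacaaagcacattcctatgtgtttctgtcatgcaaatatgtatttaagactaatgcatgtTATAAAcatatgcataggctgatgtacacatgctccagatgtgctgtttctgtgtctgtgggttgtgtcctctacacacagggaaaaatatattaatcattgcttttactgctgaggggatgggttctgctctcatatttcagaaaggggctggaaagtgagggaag

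The windows differed in their number of CpG dinucleotides. Col4a1 held 37 and Col4a2 33, Col1a2 held 13 and Col3a1 none, against a median of 7 over 32851 RefSeq windows and of 11.5 over the 38 windows of the 35 matched collagen genes. Matched genes called lower as deposited ran from 1 in Col20a1 to 37 in Col4a1, with Col4a4 at 14 and Col4a5 at 11. Tested genes without a call ran from 0 in Col3a1 to 34 in Col5a1, with Col8a2 at 32. A link between CpG number and change was not tested. GGGCGG stood in 23 of the 38 collagen windows and in 35.7% of all windows. CCAAT stood in 13 of the 38 and in 37.4% of all windows, and TATAAA in 5 of the 38 and in 13.6% of all. The Col4a1 and Col4a2 windows held CCAAT and GGGCGG and neither held TATAAA, whereas Col3a1 held TATAAA and neither of the others. The GGGCGG of Col4a1 lies in the shared bases, so Col4a2 holds the same site. This content was not common to the type IV genes: Col4a5 held CCAAT and GGGCGG, Col4a6 held GGGCGG without CCAAT, and Col4a4 held neither. The matched genes leave out Col1a1, Col2a1, Col4a3, Col5a2, Col9a3, Col12a1, Col14a1, Col22a1 and Col26a1.

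Changes over all 6 libraries are given on the following scales, as deposited and scaled, because the typical lung gene was itself lower in DPP3_KO as deposited. Over 15650 tested genes the median log2 change of TPM + 1 was -0.60, and 5321 genes (34.0%) were lower and 216 (1.38%) higher at a Benjamini-Hochberg adjusted limma p below 0.05. Median-of-ratios scaling, which sets each library against the typical gene, moved that median to -0.02 and left 139 genes (0.888%) lower and 304 (1.94%) higher. Alveolar type 1, capillary, club and ciliated cell markers of the lung were detected in every library. Club cell genes summed to between 74479 and 105776 TPM in Ctrl and between 229743 and 297261 TPM in DPP3_KO. Heart muscle genes summed to between 467 and 939 TPM in Ctrl and between 1739 and 1906 TPM in DPP3_KO, and their source was not tested. As deposited, Ctrl replicate 3 was the lowest Ctrl library for 26 of the 28 tested collagen genes. For 18 of the 28 it lay below the highest DPP3_KO library. The matching shares over all tested genes are not given here, so these counts are not read as particular to collagens. The sums of TPM are the same in each library by construction, so the depth behind the values is unknown.

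Of the 28 tested collagen genes, 8 were called lower in DPP3_KO as deposited and none higher. The 8, or 28.6%, are to be read against the 34.0% of all tested genes. They were the type IV genes Col4a1, Col4a2, Col4a3, Col4a4 and Col4a5, the fibril-associated Col12a1 and Col20a1, and Col7a1, the chain of the anchoring fibrils under stratified epithelia. The median log2 change of the 28 was -0.88 as deposited and -0.34 once scaled, against -0.60 and -0.02 over all tested genes. After scaling, Col4a3 alone was called lower and none was called higher (limma, adjusted p below 0.05). At an unadjusted p below 0.05 there were 11 collagen genes as deposited and 6 after scaling, where 50.3% and 23.1% of all tested genes were. The groups did not overlap, with DPP3_KO below, for 9 of the 28 as deposited and for 5 after scaling, where the shares over all tested genes were 51.1% and 15.2%. The 5 were Col4a1, Col4a2, Col4a3, Col4a4 and Col20a1. The 8 calls became 0 without Ctrl replicate 1 or Ctrl replicate 2, 17 without Ctrl replicate 3, 5 without DPP3_KO replicate 1 and 4 without either of the other DPP3_KO libraries. Over all genes, 18, 71 and 4096 were lower without Ctrl replicates 1, 2 and 3, and 3163, 4993 and 1596 without DPP3_KO replicates 1, 2 and 3.

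**Figure D1:**
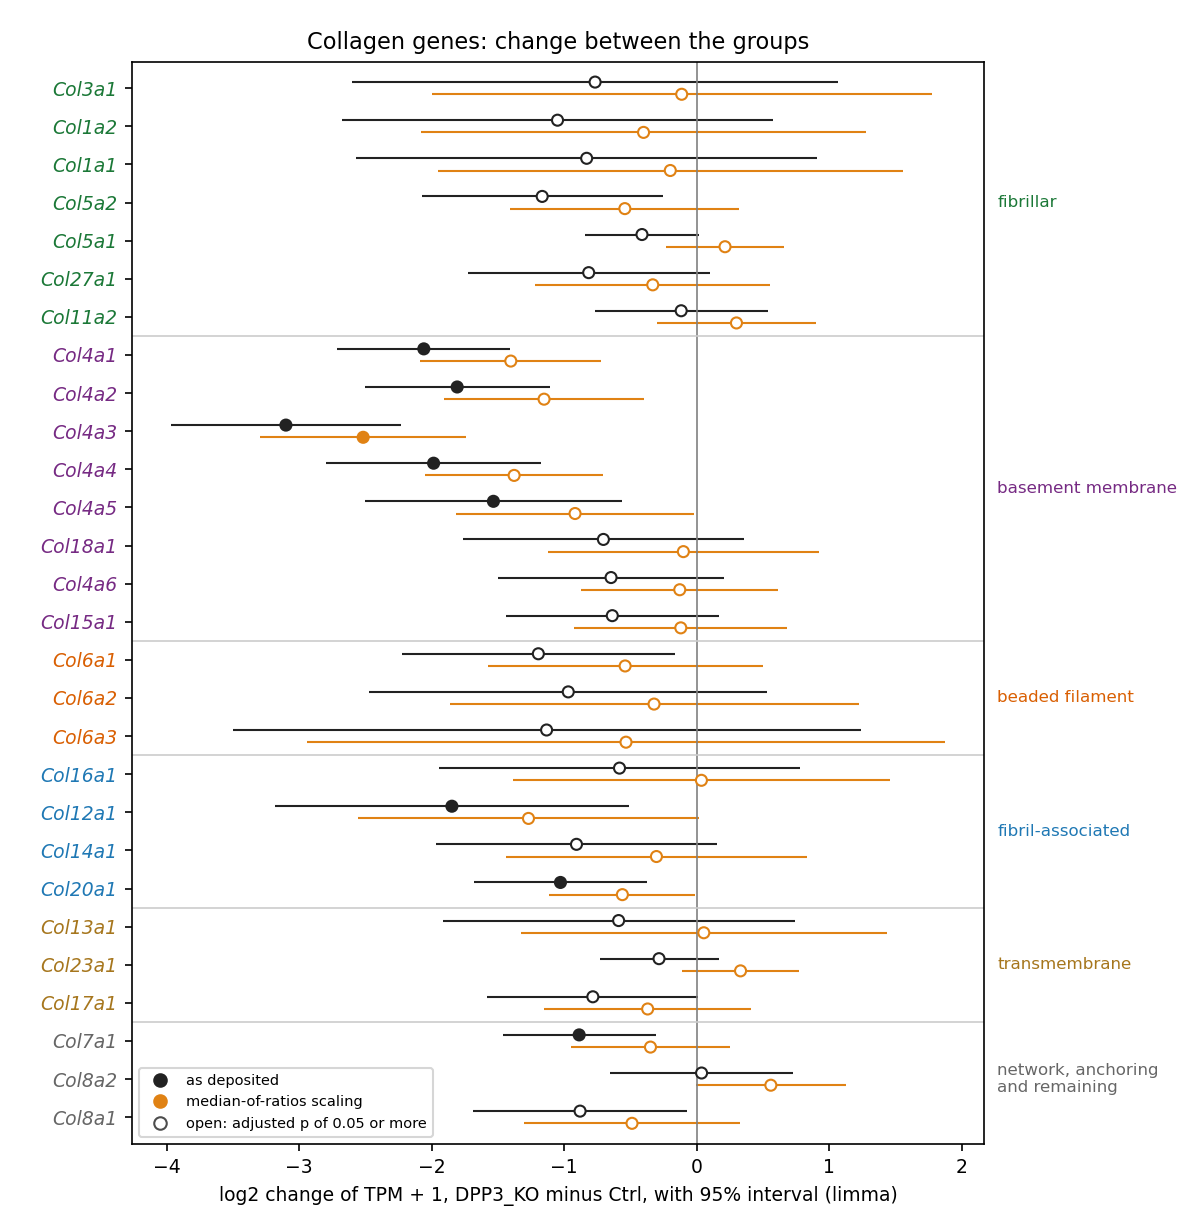
Log2 change of TPM + 1 (DPP3_KO minus Ctrl, x axis) of the 28 tested collagen genes by class, with the 95% limma interval; black is as deposited, orange after median-of-ratios scaling, and open points have an adjusted p of 0.05 or more. Col4a3 lies farthest to the left at -3.10 and -2.52, and it is the only filled orange point.

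In Ctrl lungs the most abundant collagen transcripts were those of the common basement membrane chains, Col4a1 at 221 ± 45.3 TPM (SD, n = 3) and Col4a2 at 174 ± 37.7 TPM. Col3a1, the chain of type III fibrils, followed at 139 ± 104 TPM, then Col6a1 at 131 ± 63.4 TPM and Col1a2 at 89.5 ± 58.8 TPM. Col4a1 was above Col4a2 in each Ctrl library, and the other neighbours in this order differed by less than the larger of their SDs. In DPP3_KO lungs the first places were held by Col3a1 at 57.9 ± 17.4 TPM, Col4a1 at 53.3 ± 18.1 TPM, Col6a1 at 52.9 ± 17.5 TPM and Col4a2 at 50.2 ± 18.5 TPM, again closer to each other than the SDs. The order below them changed most for Col4a3, which stood at place 8 of the 28 in Ctrl and at place 18 in DPP3_KO. Col5a1, a chain that starts and limits fibrils, stood at place 16 in Ctrl and place 9 in DPP3_KO.

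**Figure D2:**
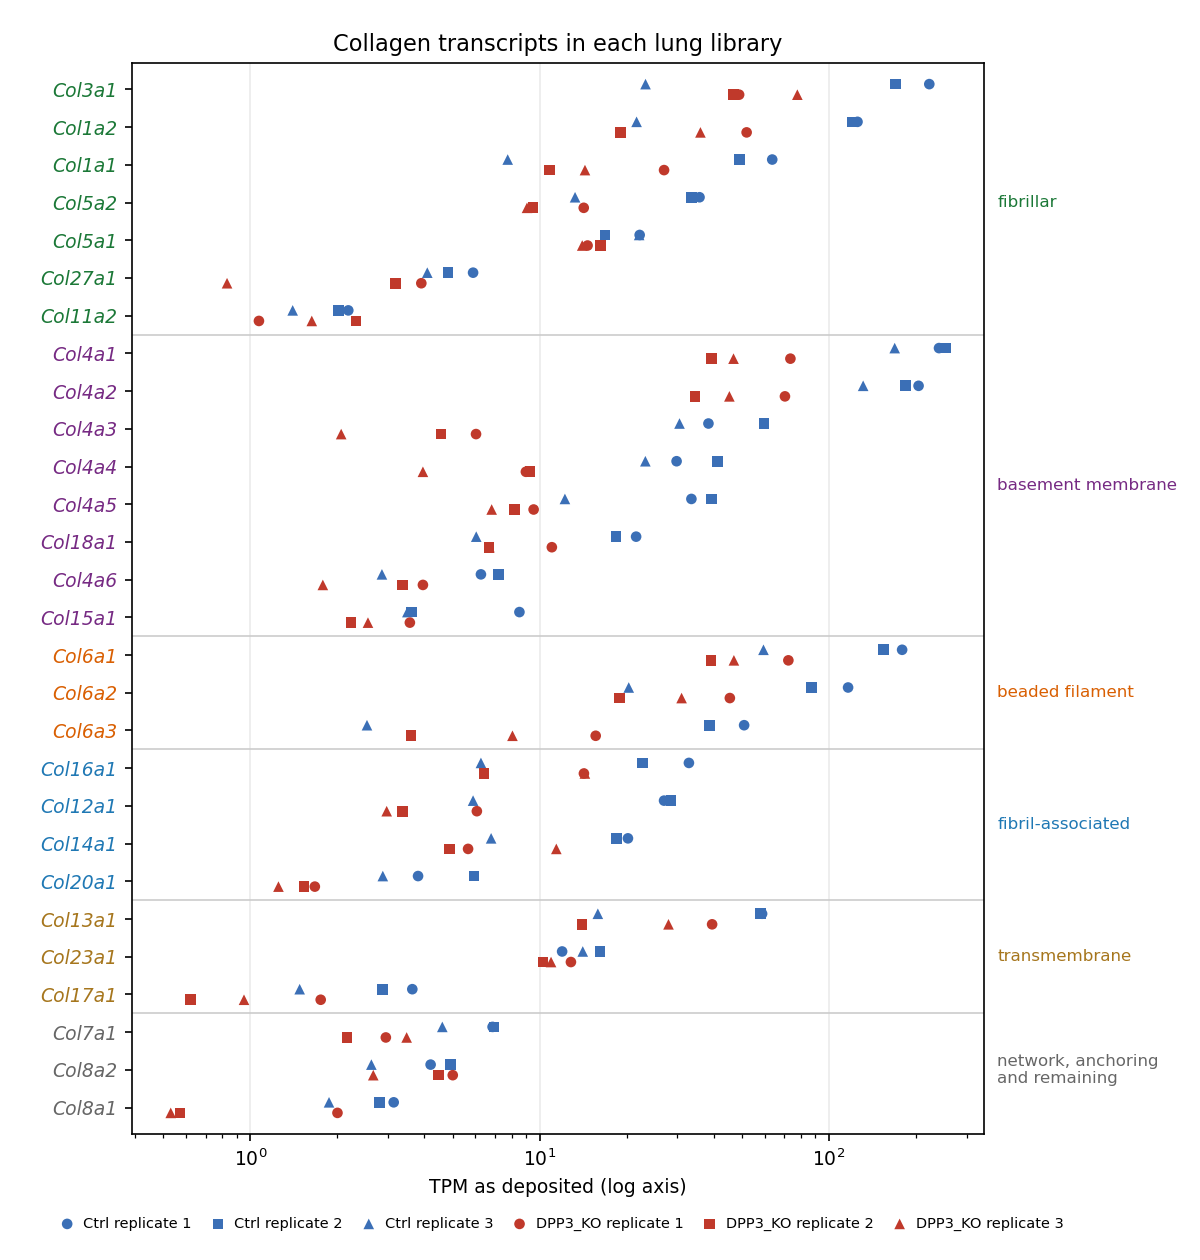
TPM as deposited (x axis, log scale) of the 28 tested collagen genes in each of the 6 libraries, grouped by class; blue is Ctrl, red is DPP3_KO and the marker gives the replicate. The blue and red points of Col4a1 to Col4a4 are apart, while for Col3a1, Col1a1, Col1a2 and Col6a3 the blue triangle of Ctrl replicate 3 lies among or below the red points.

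Among the basement membrane collagens, the 5 most abundant of the 6 type IV chains were lower in DPP3_KO as deposited, and Col4a6, Col15a1 and Col18a1 were not called. These calls made 62.5% of the class, where 34.0% of all tested genes were lower. The median log2 change of the 8 genes was -1.67 as deposited and -1.03 after scaling. Col4a1 stood at 241, 253 and 169 TPM in Ctrl replicates 1, 2 and 3 and at 73.8, 39.4 and 46.9 TPM in DPP3_KO replicates 1, 2 and 3. Every Ctrl library was above every DPP3_KO library, and the Ctrl mean was 4.15 times that of DPP3_KO. The log2 change was -2.06 ± 0.28 (SE, limma, adjusted p = 0.0145), and -1.40 ± 0.29 after scaling (adjusted p = 0.0561). Its neighbour Col4a2 stood at 205, 185 and 132 TPM in Ctrl and at 70.6, 34.5 and 45.4 TPM in DPP3_KO, again without overlap. The change of Col4a2 was -1.81 ± 0.30 (limma, adjusted p = 0.0152), and -1.15 ± 0.32 after scaling (adjusted p = 0.101). Without Ctrl replicate 1 or Ctrl replicate 2 neither gene was called as deposited, with limma adjusted p between 0.0583 and 0.0838. After scaling, Col4a1 was called without DPP3_KO replicate 1 (limma, adjusted p = 0.0442). In bulk lung RNA, fewer cells of a type and less RNA per cell cannot be told apart.

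The chains of the second type IV network were lower too, Col4a3 by more than any other collagen gene. Col4a3, whose product is the autoantigen of Goodpasture disease, stood at 38.4, 59.8 and 30.5 TPM in Ctrl and at 6.03, 4.56 and 2.06 TPM in DPP3_KO. The lowest Ctrl library was above the highest DPP3_KO library, and the Ctrl mean was 10.2 times the DPP3_KO mean. The log2 change was -3.10 ± 0.37 (limma, adjusted p = 0.0144), -2.52 ± 0.33 after scaling (adjusted p = 0.0189) and -2.21 once the trend of each library with gene length was also taken out (adjusted p = 0.0246). The scaled call was lost when Ctrl replicate 1, Ctrl replicate 2, Ctrl replicate 3, DPP3_KO replicate 2 or DPP3_KO replicate 3 was left out, with limma adjusted p from 0.0557 to 0.0911 and log2 changes from -2.23 to -2.67, in fits that called between 6 and 55 of all genes lower. Its head-to-head partner Col4a4 stood at 29.8, 41.2 and 23.2 TPM in Ctrl and at 8.97, 9.27 and 3.95 TPM in DPP3_KO. These groups did not overlap either, and the change was -1.99 ± 0.34 (limma, adjusted p = 0.0155), or -1.38 ± 0.28 after scaling (adjusted p = 0.0564). Without Ctrl replicate 1 or Ctrl replicate 2 neither gene was called as deposited (limma, adjusted p from 0.0583 to 0.0852).

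The third chain of that network, Col4a5, was less even among the Ctrl libraries. It stood at 33.5, 39.4 and 12.2 TPM in Ctrl and at 9.54, 8.21 and 6.83 TPM in DPP3_KO. The groups did not overlap, but Ctrl replicate 3 lay closer to DPP3_KO than to the other Ctrl libraries. The change was -1.53 ± 0.41 (limma, adjusted p = 0.0301) and -0.92 ± 0.38 after scaling (adjusted p = 0.209), and the deposited call held in the leave-one-out fit without Ctrl replicate 3 (adjusted p = 0.0283) and in none of the other 5, where adjusted p ran from 0.0550 to 0.117. Col4a6, its neighbour on the X chromosome and a chain of other epithelial basement membranes, lay between 2.85 and 7.20 TPM in Ctrl and between 1.78 and 3.95 TPM in DPP3_KO. Its groups overlapped and its change of -0.65 ± 0.36, or -0.13 after scaling, was not called (limma, adjusted p = 0.188 as deposited).

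Col15a1 and Col18a1 code for the multiplexins, proteoglycan collagens that link basement membranes to the tissue around them, and the type XVIII chain releases the fragment endostatin. Col18a1 stood at 21.6, 18.4 and 6.04 TPM in Ctrl and at 11.0, 6.69 and 6.71 TPM in DPP3_KO, with Ctrl replicate 3 the lowest of all 6. Its change of -0.70 ± 0.45 was not called (limma, adjusted p = 0.241) and was -0.10 after scaling. Without Ctrl replicate 3 it was -1.23 and called as deposited (limma, adjusted p = 0.0360). Col15a1 stood at 8.52, 3.60 and 3.49 TPM in Ctrl and at 3.56, 2.23 and 2.55 TPM in DPP3_KO. Only Ctrl replicate 1 was far from the rest, and the change of -0.64 ± 0.34, or -0.12 after scaling, was not called either (limma, adjusted p = 0.171 as deposited).

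Most markers of the cells on either side of the alveolar basement membrane moved in the same direction as the type IV genes. Of 12 capillary endothelial markers, 10 were lower as deposited and 2 after scaling (Cdh5 and Calcrl), and their sum was 2392 to 2951 TPM in Ctrl and 634 to 1080 TPM in DPP3_KO. Of 10 alveolar type 1 cell markers, 8 were lower as deposited and 2 after scaling (Pdpn and Clic5), with sums of 3729 to 6327 TPM and of 1147 to 2734 TPM. Over all tested genes 34.0% were lower as deposited and 0.888% after scaling. Cldn5 and Emcn of the capillary list and Aqp5 and Igfbp2 of the alveolar type 1 list were not called. After scaling Cldn5 and Aqp5 changed by 0.23 and 0.19, and Emcn and Igfbp2 by -0.25 and -1.40. The median log2 changes of the lists were -1.73 and -2.00, or -1.09 and -1.35 after scaling, beside -1.67 and -1.03 for the basement membrane collagens. No marker of either list had a group mean of 0. Their part in the type IV result was not tested.

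The fibrillar collagens gave no call among 7 tested genes, as deposited or after scaling, and their median log2 change was -0.82 and -0.20. Col3a1 stood at 223, 170 and 23.3 TPM in Ctrl and at 49.0, 46.9 and 77.9 TPM in DPP3_KO. Ctrl replicates 1 and 2 were above all DPP3_KO libraries, and Ctrl replicate 3 was below all of them. The change was -0.77 ± 0.78 (limma, adjusted p = 0.448), with a 95% interval from -2.60 to 1.07, and -0.11 after scaling. Col1a1, a chain of type I fibrils, stood at 63.8, 49.3 and 7.76 TPM in Ctrl and at 27.0, 10.8 and 14.4 TPM in DPP3_KO. Its partner chain Col1a2 stood at 126, 121 and 21.7 TPM in Ctrl and at 52.0, 19.1 and 36.0 TPM in DPP3_KO. Both had the same layout as Col3a1, with Ctrl replicate 3 lowest or next to lowest, and their changes of -0.83 ± 0.74 and -1.05 ± 0.69 were not called (limma, adjusted p = 0.387 and 0.254). After scaling they were -0.20 and -0.40.

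The spread within Ctrl was larger than the difference between the groups for these genes and smaller for Col4a1 to Col4a4. The mean of Ctrl replicates 1 and 2 was 8.45 times Ctrl replicate 3 for Col3a1, 7.29 times for Col1a1, 5.70 times for Col1a2, 5.01 times for Col6a2 and 17.7 times for Col6a3. The same ratio was 1.46 for Col4a1, 1.48 for Col4a2, 1.61 for Col4a3 and 1.53 for Col4a4. For Col5a1 it was 0.883, so Ctrl replicate 3 was not low in every fibrillar gene. Without Ctrl replicate 3, 17 of the 28 collagen genes were called lower as deposited, 4 of them fibrillar, where 26.2% of all tested genes were. Col3a1 then changed by -1.77, Col1a1 by -1.73 and Col1a2 by -1.87 (limma, adjusted p = 0.0283, 0.0361 and 0.0347). After median-of-ratios scaling the same fit without Ctrl replicate 3 called none of the 28, with 11 at an unadjusted p below 0.05, as were 19.8% of all tested genes.

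**Figure D3:**
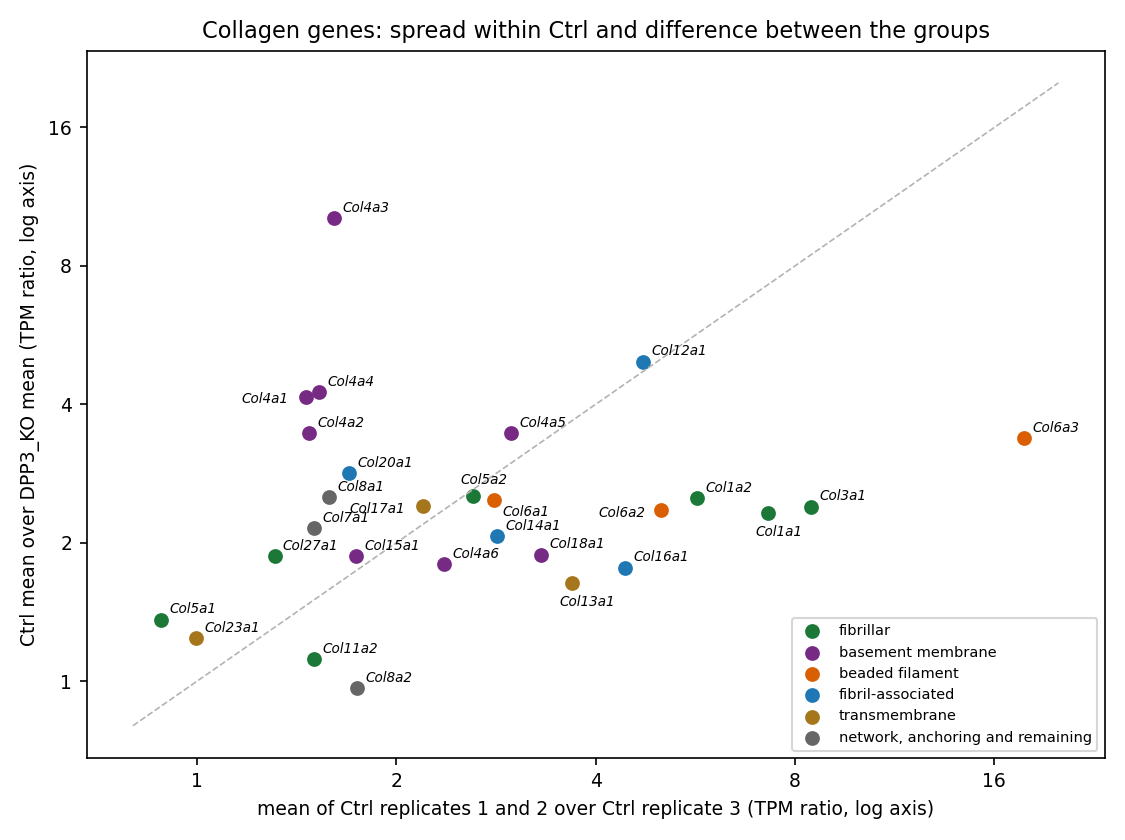
Each point is a tested collagen gene, coloured by class; the x axis is the mean of Ctrl replicates 1 and 2 over Ctrl replicate 3 and the y axis the Ctrl mean over the DPP3_KO mean (TPM ratios, log axes), with a dashed line where both are equal. Col4a1 to Col4a4 lie on the left, above the line, and Col6a3, Col3a1, Col1a1, Col1a2 and Col6a2 lie on the right, below the line. Col6a3 is about as high as Col4a2.

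Fibroblast markers showed no call. Of 11 tested, none was called on either scale, and the median log2 change was -0.62 as deposited and -0.02 after scaling. Their sum was 5846, 6007 and 3255 TPM in Ctrl replicates 1, 2 and 3 and lay between 2952 and 5434 TPM in DPP3_KO. Ctrl replicate 3 was therefore low in the fibroblast list as well, by 1.82 times against the other Ctrl libraries. It was low by 3.14 times in the pericyte and smooth muscle list and by 3.62 times in the mesothelium list, and by 1.20 times in the capillary list. The alveolar type 1, heart muscle and adipocyte lists gave 1.66, 1.78 and 1.73, near the fibroblast value. The ciliated and club cell lists gave 1.26 and 1.24, and the cartilage list 0.865. The part of any of these cells in the fibrillar values was not tested.

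The minor fibrillar chains were not called either. Col5a2, the second chain of type V and the neighbour of Col3a1, lay between 13.3 and 35.8 TPM in Ctrl and between 9.05 and 14.2 TPM in DPP3_KO, and its change of -1.17 ± 0.39 missed the threshold (limma, adjusted p = 0.0520) and was -0.54 after scaling. As deposited it passed when the filter was a mean of 5 TPM (adjusted p = 0.0421) and without Ctrl replicate 3 (-1.61, limma adjusted p = 0.0283). Col5a1 lay between 16.9 and 22.2 TPM in Ctrl and between 14.1 and 16.2 TPM in DPP3_KO. Its groups did not overlap as deposited, but the change was small at -0.41 ± 0.18 (limma, adjusted p = 0.112) and turned to 0.21 after scaling. Col27a1, a chain of thin fibrils in cartilage, changed by -0.82 and Col11a2 by -0.12, or -0.33 and 0.30 after scaling, none of them called.

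All type VI chains with enough transcript were spread widely in Ctrl, and none of the 3 was called. Col6a1 and Col6a2 are neighbouring genes whose chains assemble with that of Col6a3 into the beaded filaments that anchor cells to fibrils. Col6a1 stood at 180, 155 and 59.5 TPM in Ctrl and at 72.6, 39.2 and 47.0 TPM in DPP3_KO. Ctrl replicate 3 lay between DPP3_KO replicates 1 and 3, and the change was -1.19 ± 0.44 (limma, adjusted p = 0.0669), or -0.54 after scaling. Col6a2 stood at 117, 87.3 and 20.4 TPM in Ctrl and at 45.5, 18.9 and 31.0 TPM in DPP3_KO. Col6a3 stood at 51.0, 38.7 and 2.53 TPM in Ctrl and at 15.6, 3.59 and 8.06 TPM in DPP3_KO. For Col6a3 the third Ctrl library was the lowest of all 6, and the 95% interval of the change, from -3.50 to 1.24, held 0. The changes of Col6a2 and Col6a3 were -0.97 ± 0.64 and -1.13 ± 1.01 (limma, adjusted p = 0.253 and 0.387), or -0.32 and -0.53 after scaling. Without Ctrl replicate 3 the deposited changes of Col6a1, Col6a2 and Col6a3 were -1.69, -1.72 and -2.36, all called (limma, adjusted p = 0.0291, 0.0350 and 0.0367).

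Of 4 tested fibril-associated collagens, 2 (50%) were called lower as deposited, where 34.0% of all tested genes were, and none after scaling. Col12a1, which binds type I fibrils in dense connective tissue, stood at 27.0, 28.5 and 5.89 TPM in Ctrl and at 6.07, 3.36 and 2.96 TPM in DPP3_KO. Ctrl replicate 3 lay just below DPP3_KO replicate 1, so the groups overlapped, and the change was -1.85 ± 0.57 (limma, adjusted p = 0.0419), or -1.27 ± 0.54 after scaling (adjusted p = 0.223). Col20a1 was low throughout, at 3.80, 5.94 and 2.87 TPM in Ctrl and at 1.67, 1.53 and 1.25 TPM in DPP3_KO, without overlap. Its change was -1.03 ± 0.28 (limma, adjusted p = 0.0301), and -0.56 after scaling (adjusted p = 0.210). Both deposited calls held without Ctrl replicate 3 and were lost without any one of the other libraries, with adjusted p from 0.0579 to 0.151 for Col12a1 and from 0.0527 to 0.104 for Col20a1. Col14a1 and Col16a1 changed by -0.91 and -0.58, or -0.30 and 0.036 after scaling, with overlapping groups and no call, and Col14a1 was called without Ctrl replicate 3 (-1.37, limma adjusted p = 0.0448).

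The 3 tested transmembrane collagens were not called. Col13a1, a cell adhesion collagen, lay between 15.9 and 58.9 TPM in Ctrl and between 14.0 and 39.5 TPM in DPP3_KO, and its change of -0.59 turned to 0.05 after scaling. Col23a1 was among the most even members, between 12.0 and 16.2 TPM and between 10.3 and 12.8 TPM, and changed by -0.28 ± 0.19, or 0.33 after scaling. Col17a1, the hemidesmosome collagen of basal epithelial cells, lay below 4 TPM in every library and changed by -0.78 ± 0.34 (limma, adjusted p = 0.103), or -0.37 after scaling. Of the remaining genes, Col7a1 stood at 6.88, 6.96 and 4.61 TPM in Ctrl and at 2.94, 2.16 and 3.47 TPM in DPP3_KO. Its groups did not overlap as deposited, and the change was -0.89 ± 0.25 (limma, adjusted p = 0.0321), or -0.35 after scaling (adjusted p = 0.448). The deposited call of Col7a1 was lost without any library other than Ctrl replicate 3 (adjusted p from 0.0554 to 0.125). The type VIII chains, which form the hexagonal lattice of some vessel and corneal membranes, had changes of different sign, neither of them called: Col8a1 changed by -0.88 ± 0.34 (adjusted p = 0.0794), or -0.49 after scaling, and Col8a2 by 0.04 ± 0.29 (limma, adjusted p = 0.926). Without DPP3_KO replicate 1, Col8a1 changed by -1.46 and was called (limma, adjusted p = 0.0417). Col8a2 was the one tested collagen gene with a change above 0 as deposited, and after scaling its DPP3_KO libraries all lay above its Ctrl libraries, with a change of 0.56 ± 0.24 (adjusted p = 0.219).

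Summed over all 44 genes, collagen transcripts made up 0.159%, 0.146% and 0.0622% of TPM in the Ctrl libraries and 0.0579%, 0.0331% and 0.0436% in the DPP3_KO libraries. As deposited the groups did not overlap, and the mean of the Ctrl sums was 2.73 times that of DPP3_KO. Ctrl replicate 3 lay close to DPP3_KO replicate 1, however. Scaling divides these libraries by 1.19 and 0.809, which puts Ctrl replicate 3 below DPP3_KO replicate 1, so the scaled groups overlap. The log2 difference of the deposited sums was -1.37, with an exact two-sided permutation p of 0.1, the smallest that 3 against 3 can give. The 8 basement membrane genes summed to 584, 607 and 379 TPM in Ctrl and to 187, 108 and 116 TPM in DPP3_KO. Here the groups were well apart, with a log2 difference of -1.94 (exact permutation p = 0.1), or -1.28 after scaling. The 11 fibrillar genes summed to 481, 399 and 94.4 TPM in Ctrl and to 163, 109 and 155 TPM in DPP3_KO. Ctrl replicate 3 was the lowest library, the log2 difference was -0.91 (exact permutation p = 0.4), and it was -0.24 after scaling and -1.65 without Ctrl replicate 3. The type VI sums overlapped in the same way, with a log2 difference of -1.15 (exact permutation p = 0.3), or -0.49 after scaling and -1.79 without Ctrl replicate 3.

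**Figure D4:**
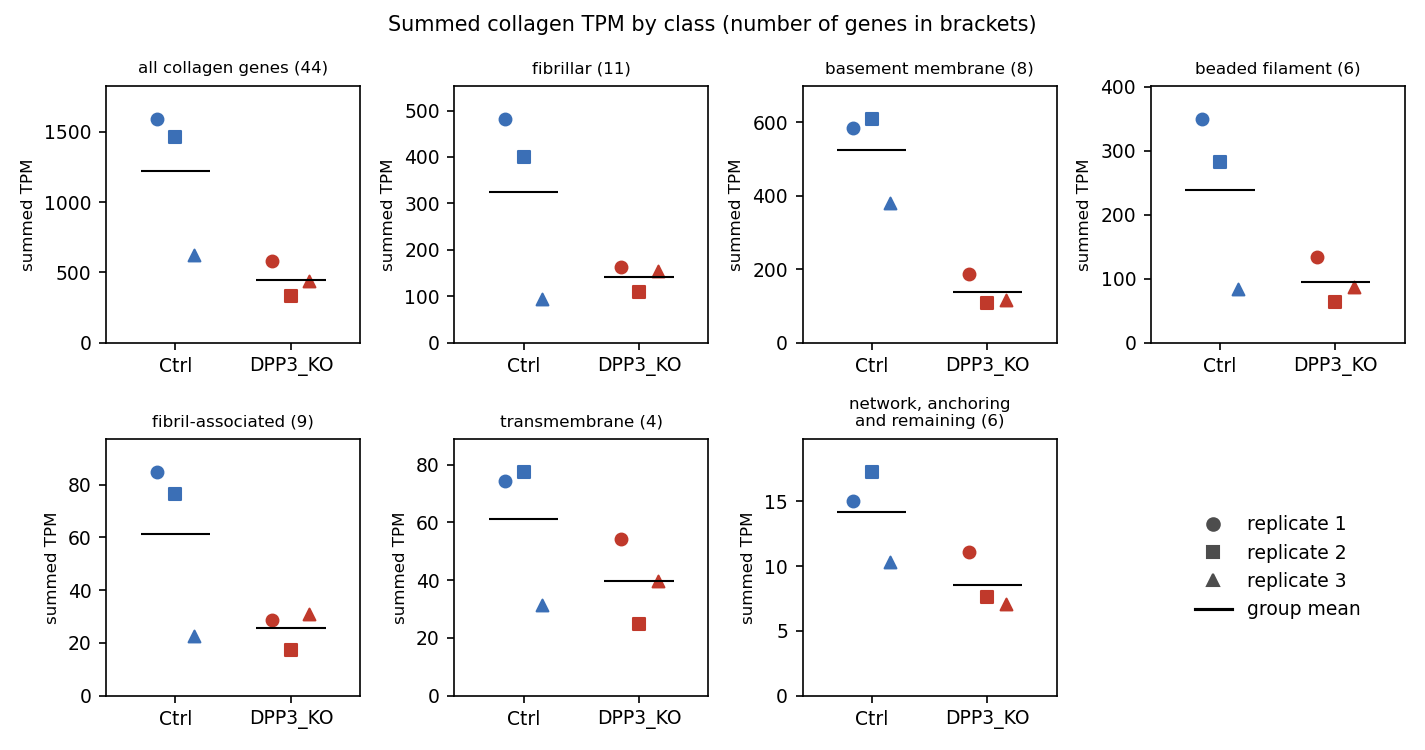
Summed TPM (y axis, from 0) of all collagen genes and of each class in the Ctrl (blue) and DPP3_KO (red) libraries, with the replicate as marker shape and the group mean as a line. The groups are apart for basement membrane collagens, 379 to 607 against 108 to 187 TPM, and overlap for fibrillar collagens, where Ctrl replicate 3 sits at 94.4 TPM.

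Ratios between genes of a single library do not depend on how libraries are scaled, apart from the pseudocount of 1. Among the type IV chains, the ratios of Col4a4 to Col4a3, Col4a3 to Col4a1 and Col4a1 to Col4a2 did not overlap between the groups. The exact test of 3 against 3 gives no p below 0.1, so none of these differences could pass 0.05. The TPM of Col4a4 was 0.776, 0.689 and 0.762 times that of its neighbour Col4a3 in Ctrl and 1.49, 2.03 and 1.92 times in DPP3_KO. Col4a3 was thus the higher of the pair in every Ctrl library and the lower in every DPP3_KO library, a log2 difference in the ratio of 1.11 (exact permutation p = 0.1, adjusted p = 0.2 over 12 ratios). It stayed between 1.02 and 1.21 with any one library left out.

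Col4a3 was also lower relative to the common chain Col4a1, at 0.159, 0.236 and 0.180 times its TPM in Ctrl and 0.0818, 0.116 and 0.0439 times in DPP3_KO. These groups did not overlap, and the log2 difference was -1.04 (exact permutation p = 0.1, adjusted p = 0.2). The ratio of Col4a1 to Col4a2 moved far less, from 1.18, 1.37 and 1.29 in Ctrl to 1.04, 1.14 and 1.03 in DPP3_KO, a log2 difference of -0.25 (exact permutation p = 0.1, adjusted p = 0.2). Both genes of this pair were therefore close to each other in level in all libraries, with the groups just apart. The ratio of Col4a5 to Col4a1 overlapped between the groups (log2 difference 0.53, exact permutation p = 0.3, adjusted p = 0.45).

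The multiplexins stood higher relative to Col4a1 in DPP3_KO. As deposited, Col4a1 itself changed by -2.06, and Col18a1 and Col15a1 by -0.70 and -0.64. Their changes were near the median of -0.60 over all tested genes, so the higher ratios are not read as particular to the multiplexins. The ratio of Col18a1 to Col4a1 was 0.0896, 0.0727 and 0.0357 in Ctrl and 0.150, 0.170 and 0.143 in DPP3_KO, without overlap, and the log2 difference was 1.36 (exact permutation p = 0.1, adjusted p = 0.2). The ratio of Col15a1 to Col4a1 differed by 1.42 on the same scale and with the same p. Summed fibrillar over summed basement membrane collagens gave 0.824, 0.658 and 0.249 in Ctrl and 0.870, 1.01 and 1.33 in DPP3_KO. The first Ctrl library lay just below the first DPP3_KO library, so these groups barely separated, and the log2 difference of 1.03 (exact permutation p = 0.1, adjusted p = 0.2) was 0.51 without Ctrl replicate 3. Within the fibrils, the ratio of Col1a1 to Col1a2 overlapped between the groups, from 0.358 to 0.507 in Ctrl and from 0.399 to 0.567 in DPP3_KO (log2 difference 0.22, exact permutation p = 0.2, adjusted p = 0.343).

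**Figure D5:**
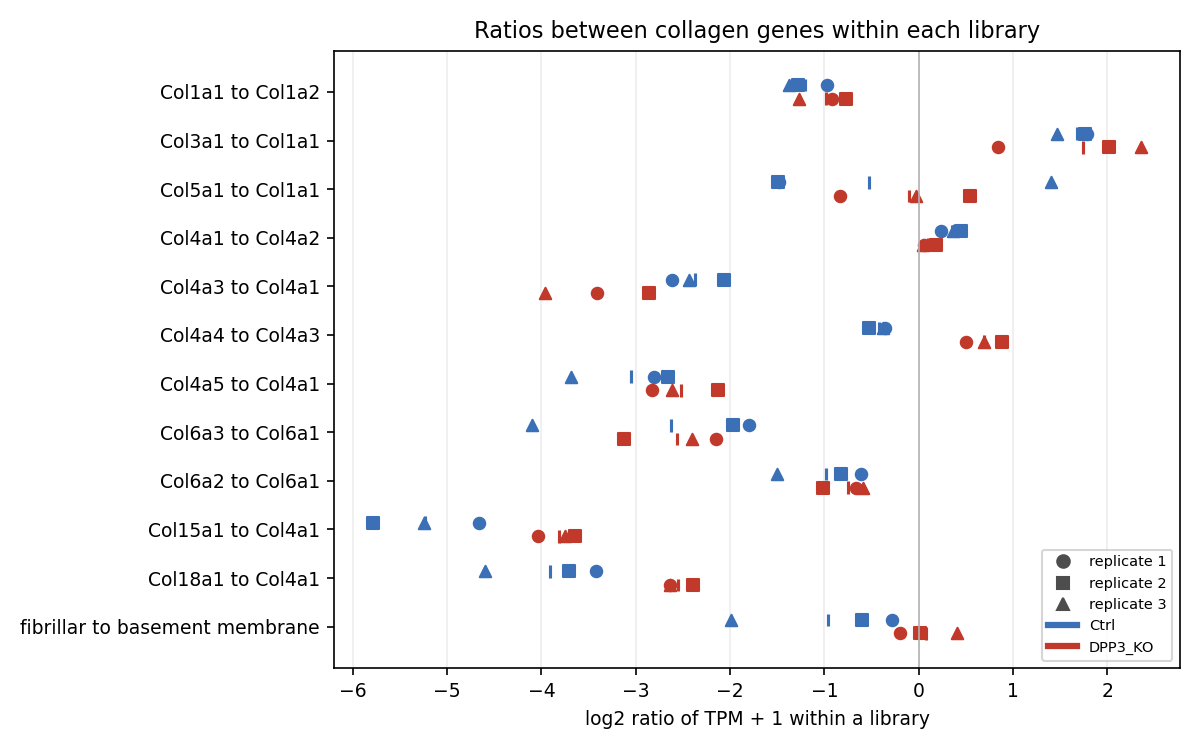
Log2 ratios of TPM + 1 between collagen genes within each library (x axis) for 12 ratios, with Ctrl in blue, DPP3_KO in red, the replicate as marker shape and the group mean as a short line. The ratio of Col4a4 to Col4a3 lies below 0 in all Ctrl libraries and above 0 in all DPP3_KO libraries.

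Collagen genes are long, and their median change was smaller in size once a length trend was taken out. The median gene length of the 28 tested members was 5794 bases in the deposited table, against 2562 bases over all tested genes. With the length trend of each library taken out after scaling, the median change of the members was -0.08, against -0.34 with scaling alone. Col4a1 then changed by -1.11, Col4a2 by -0.87 and Col4a4 by -1.07, and the 7 fibrillar genes had a median of 0.07. The part of gene length in the values was not tested further.

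The proteins that make, carry and bind collagen were described from 6 lists with 82 genes, of which 73 were tested. As deposited 30 were lower and none higher, with a median log2 change of -0.87. After scaling 1 was lower and none higher, with a median of -0.29. Against the share of all genes, 34.0% as deposited, the 30 of 73 make 41.1%. The 30 became 0 without Ctrl replicate 1 or Ctrl replicate 2 and 10 without DPP3_KO replicate 3. The single scaled call was Lama3, the laminin chain that anchors epithelia to the basement membrane, at 33.2, 54.1 and 15.1 TPM in Ctrl and at 4.61, 1.99 and 1.49 TPM in DPP3_KO. Its groups did not overlap, and it changed by -3.17 ± 0.49 (limma, adjusted p = 0.0145), or -2.61 ± 0.47 after scaling (adjusted p = 0.0443).

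Lama3 was 1 of 7 genes (43.8%) called lower as deposited among 16 tested basement membrane partners, where 34.0% of all tested genes were. Pxdn, the peroxidase that forms the sulfilimine cross-links of type IV collagen, changed by -2.17 ± 0.34 (limma, adjusted p = 0.0145) and by -1.54 after scaling (adjusted p = 0.0515). Ntn4, a laminin-related netrin, changed by -1.66, or -1.03 after scaling, and was called as deposited only. Of 17 tested modification and folding enzymes, 9 (52.9%) were lower as deposited and none after scaling. The lysyl hydroxylase gene Plod3 changed by -1.34, Plod2 by -1.57 and the galactosyltransferase genes Colgalt1 and Colgalt2 by -1.17 and -1.48, and after scaling by -0.69, -0.94, -0.52 and -0.93. Of 8 tested receptors, 3 (37.5%) were lower as deposited: Itga1, Itga2 and Itgb1, the chains of the collagen-binding integrins, with changes of -2.02, -1.52 and -1.10. After scaling these were -1.42, -1.04 and -0.44, none of them called (limma, adjusted p = 0.0990, 0.0544 and 0.247).

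Of 9 tested export genes, 5 (55.6%) were lower as deposited, where 34.0% of all tested genes were. Among them were Sec23a at -0.93 and Mia3, the receptor that loads procollagen into large carriers, at -0.86. After scaling Sec23a stood at -0.32 and Mia3 at -0.22, neither called, and Mia3 turned to 0.064 with the length trend taken out. Sec24d changed by -0.0053, or 0.63 after scaling, without a call. Of 11 tested processing and cross-linking genes, 3 (27.3%) were lower as deposited, a share below that of all genes. Among them were Bmp1, the procollagen C-proteinase, at -1.21 and the transglutaminase gene Tgm2 at -1.46. After scaling Bmp1 and Tgm2 stood at -0.58 and -0.80 without a call. The lysyl oxidase gene Lox stood at 40.6, 65.2 and 191 TPM in Ctrl and at 184, 116 and 160 TPM in DPP3_KO. For Lox it was again Ctrl replicate 3 that lay with the DPP3_KO libraries, here on the high side, and the change of 0.90 ± 0.53, or 1.56 ± 0.58 after scaling, was not called (limma, adjusted p = 0.201 and 0.177). Of 12 tested fibril-binding genes, 3 (25%) were lower as deposited, again below the share of all genes. These were Sparc, Postn and Fn1, at -2.06, -1.71 and -1.23, or -1.40, -1.05 and -0.57 after scaling without a call. The small proteoglycan gene Dcn, whose product decorates type I fibrils, changed by 0.35, or 1.01 after scaling, without a call.

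The 16 collagen genes below the filter held little transcript. Of their 96 values 16 were listed at 0, and the highest was 1.83 TPM, of Col26a1 in Ctrl replicate 2. By mean, Col5a3 lay just outside the filter at 0.988 TPM and Col11a2 just inside it at 1.77 TPM. For 5 of the 16 every value was below 0.1 TPM. The cartilage collagen Col2a1 was at or below 0.12 TPM in every library, and of 10 cartilage markers Chad alone passed the filter, while Matn1, Snorc and Ucma were listed at 0 in all libraries.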

How the data were processed

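The deposited values are TPM for 56980 mouse genes in 6 lung libraries, made by the authors before deposit; per the labels' protocols the libraries were prepared from total RNA with a TruSeq kit. The submitters' processing notes name HISAT2, StringTie, RSEM and GRCm39, with no role for each. How human reads were handled is not given in the sources used here, nor are the strand setting and the gene annotation. All value columns were matched to samples by title. TPM keeps no depth, so no counting interval is given.

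TPM was changed to log2(TPM + 1), and genes averaging 1 TPM or more entered a two-sided limma fit (version 3.58.1, R 4.3.3) with a trended prior variance. P-values were adjusted by Benjamini-Hochberg over all tested genes, and the threshold was 0.05. The log2(TPM + 1) scale understates changes of low genes. The same fit was run after median-of-ratios scaling, and again with the length trend of each library taken out (lowess, span 0.3). Sums and ratios were compared with exact permutation tests. The fit was tested on simulated data with the spreads seen after median-of-ratios scaling. It recovered 0% of genes with a planted log2 fall of 1, 79.5% with a fall of 2 and 91% with a fall of 3. A scaled change of about that smallest size without a call is therefore not evidence of no change. The members, classes, partner lists and markers were chosen with earlier results of these data known. The genes named were tested members and, of each partner list, up to 4 with the smallest p after scaling. A gene that this rule names is not reported here. Cdh5, Calcrl, Cldn5, Emcn, Pdpn, Clic5, Aqp5, Igfbp2 and the cartilage markers were named after their values were seen. Other settings were pseudocounts of 0.1 and 5, other filters, quantile normalization, TPM without Scgb1a1, limma without the trend or robust, the replicate number as a block, a threshold of 0.1 and each library left out. Promoter windows came from RefSeq on GRCm38.p6, a build other than that of the table, and no coordinates were transferred.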

Additional observations from a re-analysis of the deposited data

How the results depend on the processing

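The count of 8 collagen genes lower as deposited was 4 with no filter on low values, 1 after median-of-ratios scaling, 1 after quantile normalization, 3 with TPM rescaled without Scgb1a1, and 1 with scaling and the length trend removed. With each library left out in turn it ran from 0 to 17, and the single call after scaling ran from 0 to 2. With no filter more genes were tested, which the adjustment pays for; otherwise the cause was not tested. A threshold of 0.1 gave 11, and the other settings gave 7 to 9. The 30 partner genes called lower became 1 after scaling, 2 after quantile normalization and 0 with the length trend removed, and ran from 0 to 41 with a library left out. Partner genes called higher ran from 0 to 1.

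Among the collagen genes, directions that turned belonged to genes without a call. With scaling and the length trend removed, Col3a1 stood at 0.14, Col1a1 at 0.071, Col18a1 at 0.16, Col4a6 at 0.16 and Col15a1 at 0.12. After scaling, quantile normalization and length removal in turn, Col5a1 stood at 0.21, 0.26 and 0.52, Col11a2 at 0.30, 0.34 and 0.55, Col16a1 at 0.036, 0.040 and 0.27, Col13a1 at 0.054, 0.028 and 0.14 and Col23a1 at 0.33, 0.38 and 0.59. Without Scgb1a1, Col11a2 stood at 0.080 and Col23a1 at 0.0052. With a library left out, Col11a2 ran from -0.29 to 0.054 and Col8a2 from -0.17 to 0.25. The summed transmembrane genes turned to 0.079 after scaling. With a library left out, the log2 difference of the ratio of Col3a1 to Col1a1 ran from -0.25 to 0.51, of Col5a1 to Col1a1 from -0.066 to 1.38, of Col6a3 to Col6a1 from -0.68 to 0.48 and of Col6a2 to Col6a1 from -0.036 to 0.41.

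Same-numbered libraries correlated in their deviations at 0.271, -0.206 and 0.147, and not every library correlated best with its own number. Whether they share more than a number cannot be told from so few values. With the replicate block 9 collagen genes were lower as deposited and 1 after scaling. As deposited the block lost the call of Col7a1 (limma, adjusted p = 0.0558) and gained Col5a2 and Col6a1 (limma, adjusted p = 0.0366 and 0.0496), and 27 partner genes were lower. The number of libraries limits the precision: with 3 against 3 no exact test of a single value can pass 0.05, and the depth behind the TPM is unknown.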
